A study of Mus musculus with 12 samples.

Results

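The genes described here encode histone-modifying enzymes of the mouse hippocampus. They were chosen by symbol: names beginning with Hdac, Sirt, Prmt, Kmt, Setd, Ehmt, Ezh, Suv39h or Suv420h, and Kdm or Kat followed by a digit. The rule found 75 of the 23953 genes in the RNA tables: 11 zinc-dependent deacetylases, 7 sirtuins, 7 acetyltransferases, 24 lysine methyltransferases, 8 arginine methyltransferases and 18 lysine demethylases. The rule itself uses symbols and no measured value, but it was set with earlier results of these data known. Some of these families also hold enzymes best known for other substrates, such as the mitochondrial sirtuins Sirt3, Sirt4 and Sirt5, the tubulin deacetylase Hdac6 and the actin methyltransferase Setd3.

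Male C57BL/6 mice were either restrained in a tube for 30 min, starting 2 h after lights on, and collected after 1 h of recovery (6 mice), or left unrestrained as controls (5 mice). Hippocampal DNA and RNA of the same mice were pooled, with at most 2 mice in a pool, into 3 stress and 3 control pools. 5-hydroxymethylcytosine (5hmC) was captured chemically from each DNA pool and gave 1 list of peaks per pool, on genome build mm9. The authors summarised RNA in a single table for each group. Its levels are in FPKM, fragments scaled to transcript length and to the size of the table, so RNA has no replicate and no test here. Both groups received brief isoflurane anaesthesia before collection. Per the labels the controls were taken when the restraint of the other group began, so restraint, single housing and the time of collection cannot be told apart. The labels give an age of postnatal day 28 in one place and 7 weeks in another. No genotype other than the C57BL/6 strain, and no transgene, is named in them.

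Histone-modifying enzymes add or remove small groups on the tails of the proteins that package DNA. Acetyltransferases add acetyl groups, which go with open chromatin, and deacetylases and sirtuins remove them. Methyltransferases and demethylases place and erase methyl marks that go with active or silent chromatin depending on the residue. In the hippocampus several of these enzymes take part in memory formation and in the response to stress. 5hmC is made from methylated cytosine by the TET enzymes and is plentiful in the bodies of genes that neurons express.

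The peak lists differed in size more than the groups did. They held 15195, 27797 and 31654 peaks in stress pools 1, 2 and 3, and 17186, 27916 and 16327 peaks in control pools 1, 2 and 3, which covered 16.6 to 38.1 Mb. A gene without a listed peak may still hold 5hmC, because only peaks with a score of at least 50 were listed. In the RNA tables, markers of the choroid plexus were lower in the stress table: all 5 that averaged 1 FPKM or more were lower by over 0.32 on the log2 scale defined below, and the sum over 7 markers was 231 FPKM in controls and 63.6 after stress. Oligodendrocyte markers summed to 1412 and 1237 FPKM, with 6 of 7 below the median difference of all genes. Of 6 markers of thalamus and neighbouring tissue, 3 were higher by over 0.32 (Plekhg1, Rora and Prkcd), beside 7.71% of all genes. The others went in both directions, with Calb2 at 0.29, Tcf7l2 at -0.05 and Lef1 at -0.25. The part of tissue composition in the RNA values below was not tested, and in bulk tissue fewer cells of a type and less RNA per cell cannot be told apart.

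A peak overlapped the body of 62 of the 75 enzyme genes in at least 1 pool (82.7%), beside 52.7% of all genes. In all 6 pools, 16 members (21.3%) had a peak, beside 9.52% of all genes. Members were longer, with a median body of 38.4 kb beside 14.3 kb for all genes, and these shares were not matched for length. All 7 sirtuins carried a peak in some pool, as did 20 of 24 lysine methyltransferases, 14 of 18 lysine demethylases, 7 of 8 arginine methyltransferases, 6 of 7 acetyltransferases and 8 of 11 zinc-dependent deacetylases. The members without any peak fell into 2 kinds. All 6 members on the sex chromosomes had none, although all 6 passed 1 FPKM: Hdac6, Hdac8, Kdm5c, Kdm6a and Suv39h1 on X and Kdm5d on Y. This was so for nearly all of X, where 7 of 544 genes of at least 10 kb had a peak (1.29%), beside 75.1% of such genes on autosomes. The autosomal members without a peak were Hdac3, Kat8, Kdm4d, Prmt1, Setd6, Setdb1 and Setdb2. Among autosomal members of at least 10 kb, 54 of 59 (91.5%) had a peak, beside 85.2% of expressed autosomal genes of that length.

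Overlapping peaks of the 6 lists were merged into regions, and 238 regions lay in member bodies. A peak from a single pool made up 121 of them (50.8%, beside 55.3% of all regions in genes), and 8 had a peak in all 6 pools (3.36%, beside 1.80%). Those 8 lay in 6 genes: Hdac9 and Kat6a with 2 each, and Kdm4a, Kdm6b, Kmt2b and Setd3 with 1 each. Among the genes with any peak, 6 of 62 members had such a region (9.68%), and 6.17% of all genes did.

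Regions seen in every pool lay at different places in these genes. In Kdm4a, which removes methyl groups from repressive and elongation marks, the single region covered the last exon (chr4:117808389-117811658, 1580 of its 3270 bases exonic) and ran past the end of the gene. In Kmt2b, one of the enzymes that place the active promoter mark, it also lay at the 3′ end (chr7:31353931-31355833, 1214 of 1903 bases exonic). In Kdm6b, which erases the repressive mark placed by the Polycomb enzymes Ezh1 and Ezh2, it lay over exons towards the 3′ end, at 82.6% of the body length (chr11:69213102-69216209, 1485 of 3108 bases exonic), centred 12.5 kb from the start site. This region was joined through peaks of other pools. Its peak in stress pool 3 ended at 69214818, before those of control pools 1 and 3 began (69214887 and 69214852), so no base was under a peak in every pool. Kat6a, an acetyltransferase of the MYST family, had a region at chr8:23971466-23973736, centred 2.59 kb from its start site, and another at chr8:24042366-24044003, centred at 87.4% of the body length. The regions of Hdac9 (chr12:35025360-35026611 and chr12:35305086-35306061) and Setd3 (chr12:109379373-109380560) were intronic. The map of peaks along 6 members shows 3′ regions in Kdm4a and Kmt2b for every pool.

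**Figure D1:**
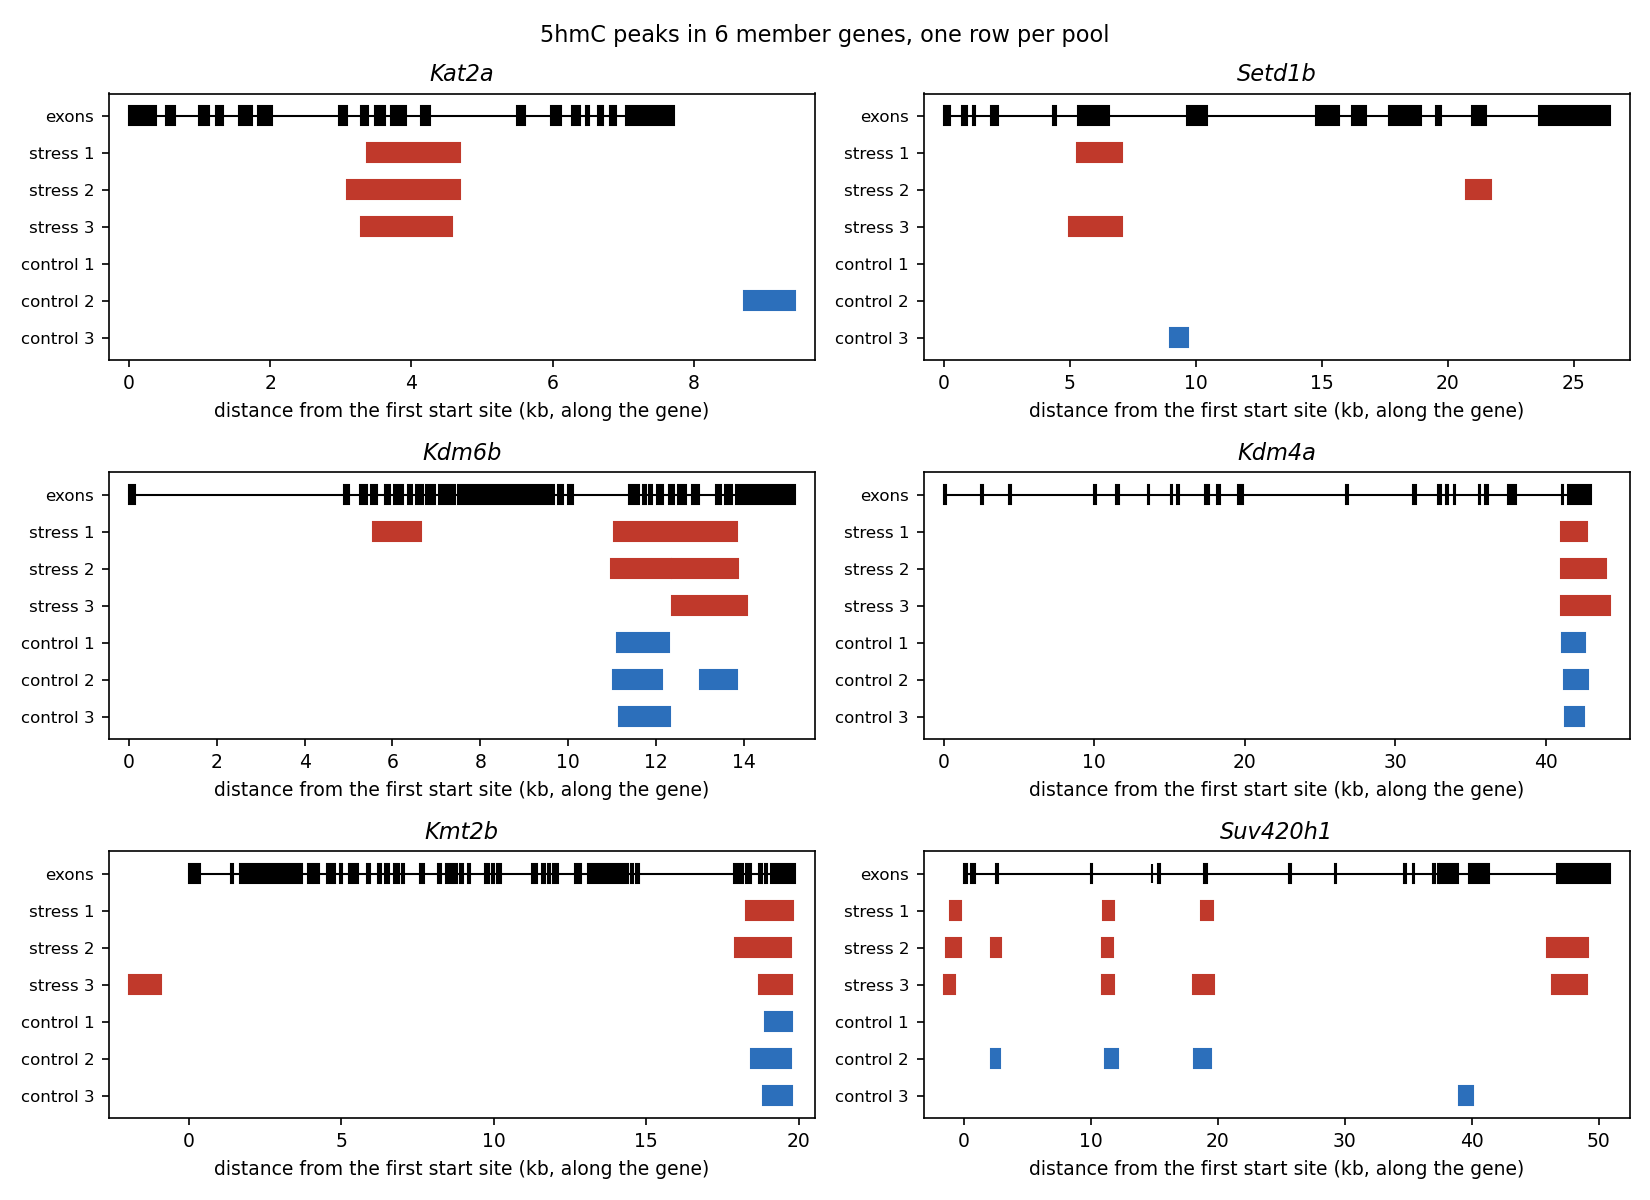
Peaks of the 6 pools along Kat2a, Setd1b, Kdm6b, Kdm4a, Kmt2b and Suv420h1, with distance from the first annotated start site in kb on the x axis, exons as black boxes and 1 row per pool (stress red, control blue). Kat2a has a peak near its middle in the 3 stress pools and in no control pool, and Suv420h1 has one just upstream of its start site in the 3 stress pools, whereas the 3′ regions of Kdm4a and Kmt2b are present in all 6.

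Stress-only regions, with a peak in all 3 stress pools and in no control pool, were present in Kat2a, Hdac4 and Kmt2c. That was 3 of 62 members with a peak (4.84%), next to 4.63% of the 12602 genes with a peak, so the share of members was near the background. Control-only regions were present in Kat6b and Kdm2b, 2 of 62 members (3.23%), next to 1.24% of all genes. Hdac4, Kat2a and Kmt2c were on the stress-only list whichever of the 6 libraries was left out, and Kat6b and Kdm2b on the control-only list. This follows almost wholly from the definition, since a region in every pool of 1 group only stays so with fewer pools. The counts depended on single libraries. Stress-only members were 9 without stress replicate 1 and 5 without stress replicate 2, stress replicate 3 or control replicate 3, and control-only members were 4 without control replicate 3. Fewer pools make the rule easier to meet, and the share of all genes was not computed for these counts. When low-scoring peaks were dropped until all lists covered equal lengths, no member kept a stress-only region and only Kdm2b kept a control-only one.

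Kat2a encodes the GCN5 acetyltransferase of the SAGA and ATAC coactivator complexes. Peaks covered 17.1%, 20.8% and 16.7% of its 7.72 kb body in stress pools 1, 2 and 3 and none of it in the control pools. All 3 stress pools were above all 3 control pools, and the covered bases were those of 1 stress-only region (chr11:100569089-100570697, 579 of 1609 bases exonic) centred 3.89 kb from the start site. Its 3 peaks stood at percentiles 43.5, 50.4 and 55.6 of the authors' scores within their lists. They were thus of middling rank, and the region was no longer stress-only among the higher-scoring 50% of each list. There the coverage difference of Kat2a fell from 18.2 to 12.5 percentage points (exact permutation p = 0.4), and with equal covered lengths it was 5.71 points (p = 1, n = 3 each). One control pool had a peak beyond the 3′ end of the gene. RNA of Kat2a was at 4.07 FPKM in controls and 4.01 after stress.

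Hdac4 is a class IIa deacetylase, a family that shuttles between cytoplasm and nucleus with neuronal activity. Peaks covered 2.01%, 2.98% and 2.97% of its 216 kb body in stress pools and 0%, 1.62% and 2.39% in control pools. The groups overlapped, since control pool 3 lay above stress pool 1. Its stress-only region (chr1:93841754-93843048) lay near the 3′ end, at 93.9% of the body length, with 134 of 1295 bases exonic.

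Kmt2c encodes a methyltransferase of the enhancer mark. Peaks covered 1.53%, 2.61% and 2.89% of its 227 kb body in stress pools and 0.706%, 1.75% and 0.36% in control pools. Control pool 2 lay above stress pool 1, so these groups overlapped as well. The stress-only region (chr5:24789636-24790996) was mostly exonic, with 1112 of its 1361 bases on exons, at 94.4% of the body length.

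The control-only regions were both intronic. In Kat6b, the close relative of Kat6a, the region lay at chr14:22341142-22342334, centred 22.7 kb from a start site. Over the whole body Kat6b had 0.827%, 5.12% and 5.82% under peaks in stress pools and 3.09%, 5.29% and 3.11% in control pools, values that overlapped. In Kdm2b, a demethylase that also brings Polycomb proteins to CpG-rich DNA, the region lay at chr5:123358799-123360156, centred 9.12 kb from a start site. Kdm2b had 3.2%, 6.09% and 4.5% in stress pools and 3.54%, 1.71% and 4.48% in control pools, so the mean over its body was higher in the stress pools although the region itself was found in controls.

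Over whole gene bodies, coverage was higher in every stress pool than in every control pool for Kat2a, Kdm4a and Setd1b, which was 3 of 62 members (4.84%) beside 7.49% of all genes. It was lower in every stress pool for Hdac9 and Kdm3b, 2 of 62 (3.23%) beside 1.04% of all genes. For these 5 genes the exact two-sided permutation p was 0.1, the smallest that 3 against 3 pools allow, and 1 after Benjamini-Hochberg adjustment over all 12602 genes with a peak, where 1075 genes had p = 0.1 and 0 had less than 0.05 before adjustment. The spread behind these p-values is that between pools, each of 1 or 2 mice. The mean was higher in stress for 41 of 62 members (66.1%), and for 68.7% of all genes with a peak. The count of members higher in every stress pool varied with the libraries used. It was 16 without stress replicate 1, 6 without stress replicate 2, 7 without stress replicate 3, 8 without control replicate 2 and 5 without control replicate 3. With fewer pools the rule is easier to meet, so such counts cannot fall. The share of all genes was not computed for them. The count lower in every stress pool was 4 without stress replicate 2 or 3 and 5 without control replicate 1.

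Setd1b, a methyltransferase of the active promoter mark, had 6.64%, 3.85% and 8% of its body under peaks in stress pools and 0%, 0% and 2.68% in control pools. Its peaks in stress pools 1 and 3 shared an exonic region (chr5:123597184-123599298, 1209 of 2115 bases exonic), whereas the peak of stress pool 2 lay 21.2 kb from the start site. The difference was therefore not at 1 place. With equal peak numbers or equal covered lengths the exact permutation p for Setd1b was 0.4, and with the higher-scoring 50% it was 1 and the difference fell from 5.27 to 2.67 percentage points (n = 3 each). Kdm4a had 4.04%, 4.76% and 4.30% in stress pools and 3.56%, 3.75% and 2.97% in control pools. All 6 values came from the same 3′ region, which was longer in the stress pools. Peaks of the whole lists were also longer there. Their median length was 976, 1062 and 1046 bp in stress pools 1, 2 and 3, and 896, 965 and 935 bp in control pools.

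Kdm6b had the largest share of its body under peaks among members of at least 10 kb, with 25.7%, 18.9% and 11.3% in stress pools and 7.76%, 13% and 7.69% in control pools. Stress pool 3 lay below control pool 2, so the groups overlapped (exact two-sided permutation p = 0.2, n = 3 each). With equal peak numbers the difference was 13.5 percentage points and with the higher-scoring 50% 11.1 points, and the exact permutation p was then 0.1 in both. With equal covered lengths the difference was 9.75 points and the exact permutation p was 0.4. A peak near the middle of the gene was found in stress pool 1 alone, and the 3′ region accounted for the rest. Suv420h1, which adds further methyl groups to the lysine of histone H4 that Setd8 methylates first, had 3.58%, 9.61% and 10.5% in stress pools and 0%, 6.08% and 2.08% in control pools, also with overlap (exact permutation p = 0.2, n = 3 each).

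Coverage was lower in every stress pool for Hdac9 and Kdm3b. Hdac9, another class IIa deacetylase, spans 869 kb and held 38 regions, the most of any member. It had 0.988%, 1.12% and 1.10% in stress pools and 1.38%, 1.70% and 1.15% in control pools, so the highest stress value lay just below the lowest control value. The exact permutation p for Hdac9 was 0.2 with equal covered lengths and 0.4 with the higher-scoring 50% of each list (n = 3 each). Kdm3b, a demethylase of a repressive methyl mark, had 0%, 1.23% and 1.65% in stress pools and 2.25%, 4% and 2.67% in control pools. Of its 5 regions, 4 were found in control pools alone and none in all 3 of them. The exact permutation p for Kdm3b was 0.4 with equal peak numbers or equal covered lengths, and with the higher-scoring 50% its mean coverage did not differ between the groups (p = 1, n = 3 each). With gene bodies extended by 5 kb, no member was lower in every stress pool.

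**Figure D2:**
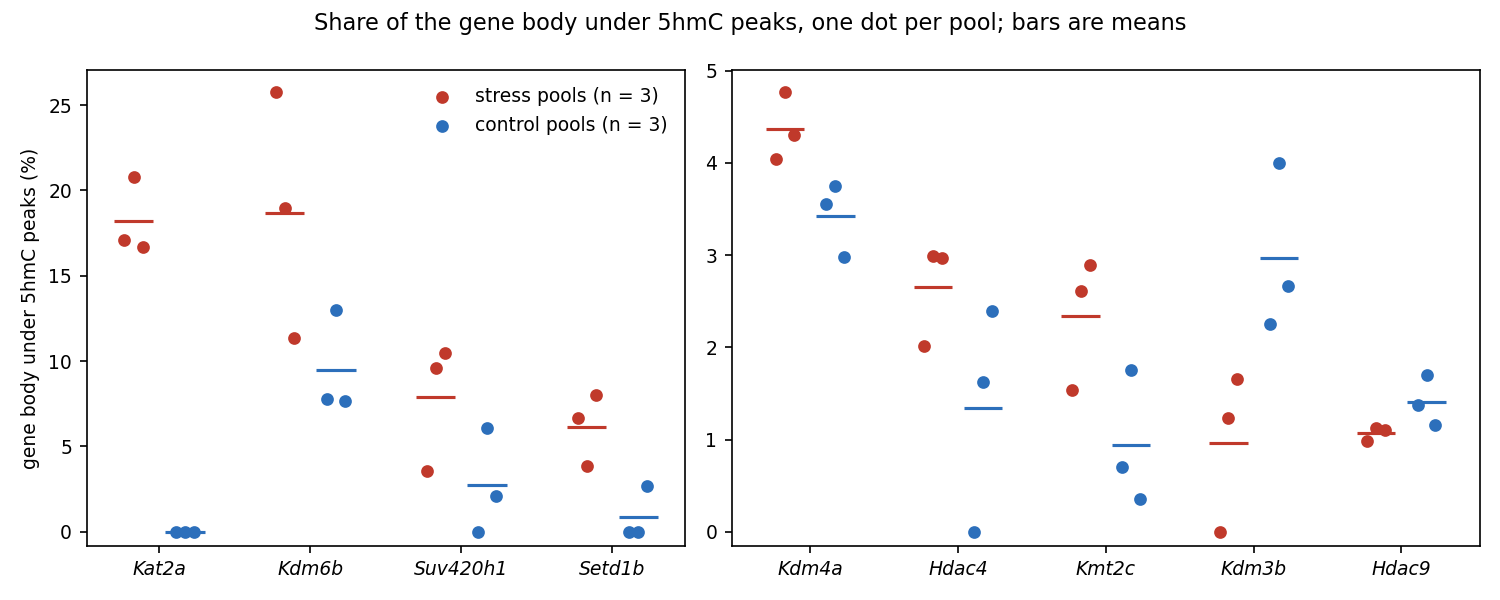
Share of the gene body under 5hmC peaks, in percent, for 9 members, with 1 dot per pool (stress red, control blue, n = 3 each) and bars at the group means. The scale differs between the panels. The groups are apart for Kat2a, Setd1b, Kdm4a, Kdm3b and Hdac9, narrowly for Hdac9, and overlap for Kdm6b, Suv420h1, Hdac4 and Kmt2c.

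In several short members a single peak covered much of the body. Sirt6 (5.82 kb) and Sirt7 (6.63 kb) had 28.8% and 29.7% of their bodies under a peak in stress pool 2 and none in any other pool. Sirt4 had 19.4% in stress pool 1 and 18.9% in control pool 2, and none elsewhere. Kat5, the TIP60 acetyltransferase, had 29.4%, 19.0% and 0% in stress pools and 0%, 15.2% and 0% in control pools. Hdac10 had 16.5%, 15.5% and 0% in stress pools and none in controls. Among longer members with a peak in 1 or 2 pools was Ehmt2. This enzyme, which with Ehmt1 writes a silencing mark, had 11.2% and 14.4% in stress pools 2 and 3 and no peak in the other 4. Sirt1, the best studied nuclear sirtuin, had 0%, 6.94% and 6.32% in stress pools and 6.47%, 6.37% and 6.91% in control pools, a single region that was missed in 1 pool.

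Because of these short genes, the mean over all members moved with single peaks. Mean coverage of the 75 members, divided by the mean of all genes of at least 10 kb in the same pool, was 1.57 ± 0.408 in stress and 1.23 ± 0.121 in control pools (SD, n = 3 each). Over the 65 members of at least 10 kb it was 1.20 ± 0.0270 and 1.31 ± 0.147, a difference of the opposite sign. In both counts the enzyme genes were above the average gene of at least 10 kb. Set against genes of that length that also had a mean of 1 FPKM, the 65 longer members had ratios of 0.981 ± 0.0104 and 1.03 ± 0.108, close to those genes.

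Exons held a larger share of the peak bases of member genes in the stress pools. They took 20.7%, 20.3% and 20.4% of peak-covered bases in member bodies in stress pools 1, 2 and 3, and 11.6%, 14.4% and 15.4% in control pools. Every stress pool was above every control pool, by 6.69 percentage points in the means. The same order held for all genes, with 14.8%, 13.9% and 14.5% in stress and 10.3%, 12.1% and 10.3% in control pools, so it was not peculiar to the enzymes. Exons make up 7.92% of the member bodies and 6.49% of the bodies of all genes. Introns took 78.0% ± 0.792 of the peak bases of members in stress pools and 84.9% ± 1.60 in control pools, and sequence within 1 kb of a start site took 1.52% ± 0.739 and 1.29% ± 0.631 (SD, n = 3 each).

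**Figure D3:**
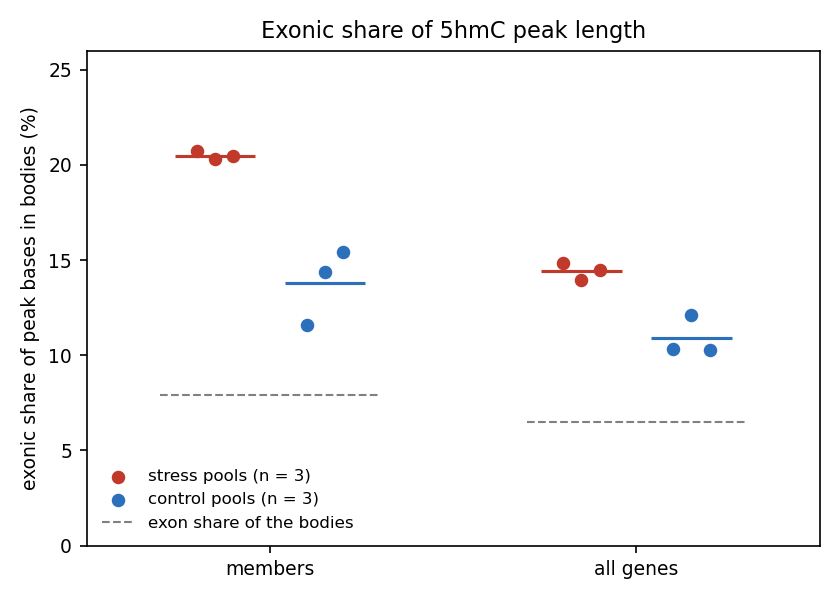
Exonic share of the peak-covered bases inside gene bodies, in percent, for the 75 members and for all genes, with 1 dot per pool and bars at the group means. Dashed lines give the exonic share of the bodies themselves. The stress pools lie above the control pools in both sets, at 20.3% to 20.7% against 11.6% to 15.4% for the members.

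Start sites of the enzyme genes carried few peaks. A peak came within 1 kb of a start site in at least 1 pool for 16 of 75 members (21.3%), beside 15.4% of all genes, and in at least 3 pools for Hdac7, Kdm8, Prmt2 and Suv420h1 (5.33%, beside 4.27%). Suv420h1 was the only one of the 16 with a stress-only region there, and 2.14% of the 3689 genes with a peak near a start site had one. Within 1 kb of its start site, 800, 827 and 325 bases were under peaks in stress pools 1, 2 and 3 and 0 in each control pool. That region (chr19:3765847-3767247, 1401 bases) ended 173 bases before the start site and did not enter the gene body, so it was not among the stress-only regions counted above. At Kdm8 peaks came within 1 kb downstream of the start site in all 3 control pools and 1 stress pool, with 441 bases in stress pool 2 and 446, 544 and 393 in control pools.

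Promoter sequences from RefSeq (build GRCm38.p6, 250 bases before to 50 after a start) were matched for 63 members, with 86 start sites. They held a median of 22 CG dinucleotides per 300 bases, beside 7 for all 32851 promoters in the table. TGACGTCA, the cAMP response element, was present in 2.33% of member promoters and 1.79% of all. AGAACA, the half-site of the glucocorticoid receptor, was present in 14.0% and 19.0%, on either strand. The 250 bases before the start are shown for Suv420h1 (listed there as Kmt5b), the member with a stress-only region upstream of its start, and for Kat2a and Kdm4a, whose peaks lay within the gene or at its 3′ end. CG dinucleotides, the usual sites of methylation, are in capitals.
Suv420h1, chr19:3767171-3767420, plus strand: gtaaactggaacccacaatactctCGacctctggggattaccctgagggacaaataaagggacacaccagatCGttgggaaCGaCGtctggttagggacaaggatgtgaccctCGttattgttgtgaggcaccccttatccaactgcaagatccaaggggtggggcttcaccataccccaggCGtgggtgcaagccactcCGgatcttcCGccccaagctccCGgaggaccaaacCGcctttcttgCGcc
Kat2a, chr11:100712468-100712717, minus strand: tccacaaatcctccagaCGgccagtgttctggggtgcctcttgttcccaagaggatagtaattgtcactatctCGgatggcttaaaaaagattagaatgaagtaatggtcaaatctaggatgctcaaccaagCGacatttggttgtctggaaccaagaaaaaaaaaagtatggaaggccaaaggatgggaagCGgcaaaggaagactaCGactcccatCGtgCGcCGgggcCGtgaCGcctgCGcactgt
Kdm4a, chr4:118180044-118180293, minus strand: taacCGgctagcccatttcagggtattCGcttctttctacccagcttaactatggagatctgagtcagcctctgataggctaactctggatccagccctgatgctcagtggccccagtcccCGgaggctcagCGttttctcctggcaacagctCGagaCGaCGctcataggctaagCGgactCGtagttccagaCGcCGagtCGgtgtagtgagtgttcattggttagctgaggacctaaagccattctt
They hold 11, 11 and 12 CG dinucleotides.

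RNA of the enzyme genes was compared between the 2 tables. Of the 75 members, 66 averaged 1 FPKM or more over the tables. Their median difference on the log2((stress + 1)/(control + 1)) scale was 0.15, beside 0.08 for all 11071 genes past the same filter, and 42 of 66 lay above the median of all genes. A difference of 0.32 on that scale, or 25%, was taken as the line for naming genes. By it 11 members were higher in the stress table (16.7%, beside 7.71% of all genes) and 1 was lower (1.52%, beside 3.52%). Centred on the median of all genes, 4 were higher and 2 lower, beside 3.9% and 6.12% of all genes. At 1.5-fold, 1 was higher and 0 lower, beside 1.18% and 0.894%, so all but 1 of these differences were smaller than 1.5-fold on this scale.

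The class medians were 0.25 for lysine demethylases, 0.17 for lysine methyltransferases, 0.16 for arginine methyltransferases, 0.10 for zinc-dependent deacetylases, 0.04 for acetyltransferases and -0.02 for sirtuins. Of the 15 lysine demethylases past the filter, 12 lay above the median of all genes, and of the 6 sirtuins 2 did. Members not past the filter were Hdac10, Kdm1b, Kdm4d, Kdm8, Setd4, Setdb2, Sirt4, Suv39h2 and Suv420h2.

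**Figure D4:**
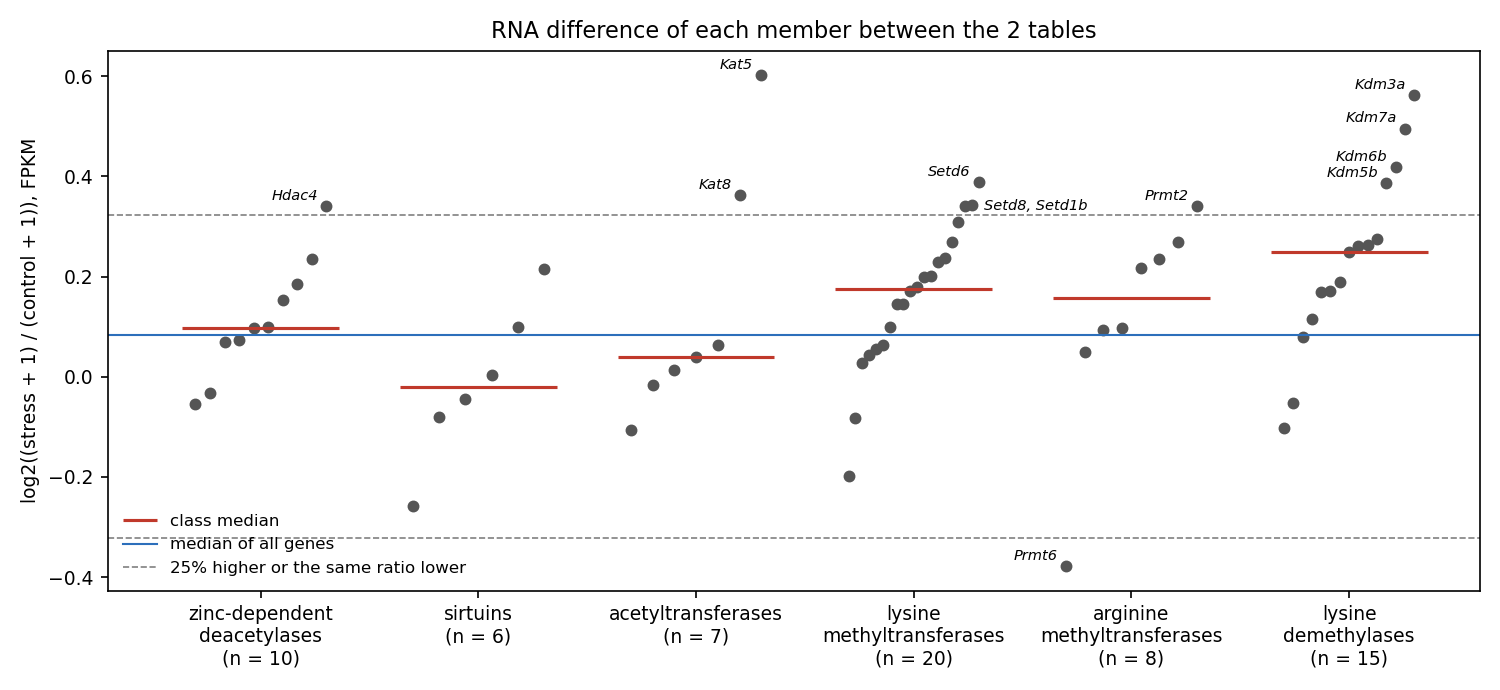
RNA difference of the 66 members with a mean of at least 1 FPKM, on the log2((stress + 1)/(control + 1)) scale, by enzyme class, with 1 dot per gene. Red bars are class medians, the blue line is the median of all genes (0.08) and dashed lines mark 0.32 in either direction. The named genes lie past these lines, 11 above and Prmt6 below.

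Among the demethylases, Kdm6b was at 2.65 FPKM in controls and 3.88 after stress, a log2 difference of 0.42. Kdm7a, which removes repressive methyl marks, was at 8.28 and 12.1 FPKM (0.50), and Kdm5b, which removes the active promoter markat 8.21 and 11 FPKM (0.39). The stress table was higher for all 3, although some exonic bases of Kdm7a are shared with 4930599N23Rik on the other strand. Kdm3a was at 2.90 and 4.76 FPKM (0.56). In the control table nearly all of it was assigned to NM_173001, with 2.90 FPKM, and in the stress table to NM_001038695, with 4.76 FPKM. These transcripts differ by 107 and 80 exonic bases of their own, so the split between them rests on little sequence. Kdm1a, the flavin-dependent demethylase LSD1, was at 5.6 and 5.15 FPKM (-0.10), the lowest of this class.

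Among the acetyltransferases, Kat5 was at 7.17 FPKM in controls and 11.4 after stress (0.60), the highest difference of all members. Kat5 has 5 transcripts, and the most abundant one was NM_178637 in the control table (3.22 FPKM) and NM_001199247 in the stress table (6.33 FPKM). For the latter alone the log2 difference was 2.25. That transcript has no exonic base that the other transcripts of Kat5 lack, so its level rests on how shared reads were assigned. Kat8, the MOF acetyltransferase, was at 2.38 and 3.35 FPKM (0.36). Kat2b, the close relative of Kat2a, was at 2.79 and 2.53 FPKM (-0.11), and Kat6a, Kat6b and Kat7 lay between 0.01 and 0.06.

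Methyltransferases past the line were Setd6, which is known to methylate an NF-kappaB subunit, at 1.91 and 2.80 FPKM (0.39), Setd1b at 2.64 and 3.61 FPKM (0.34) and Setd8 at 8.21 and 10.7 FPKM (0.34). Kmt2a, a relative of Kmt2c needed for memory formation, was at 7.88 and 9.99 FPKM (0.31), just under the line. Of enzymes known for writing silencing marks on histone H3, the 6 given next were under the line. Ezh1 was at 8.65 and 10.6 FPKM and Ezh2, the form of dividing cells, at 1.61 and 1.71 FPKM. Suv39h1 was at 2.52 and 2.07 FPKM (-0.20), the lowest of this class, Setdb1 at 4.10 and 4.85 FPKM, Ehmt1 at 4.47 and 5.41 FPKM and Ehmt2 at 11.4 and 12.2 FPKM.

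Of the arginine methyltransferases, Prmt2 was at 15.6 and 20.0 FPKM (0.34). Prmt6 was at 3.05 FPKM in controls and 2.12 after stress (-0.38), the only member lower past the line. Prmt8, the membrane-anchored form of neurons, had the highest level of all members, 30.9 and 36.6 FPKM. Prmt1, the main enzyme of this class in most tissues, was at 16.6 and 17.2 FPKM.

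Of the deacetylases, Hdac4 was at 4.25 and 5.65 FPKM (0.34), Hdac5 at 10.9 and 13 FPKM (0.23) and Hdac9 at 6.59 and 7.11 FPKM (0.10). The class I enzymes were all under the line: Hdac1 at 2.40 and 2.86 FPKM, Hdac2 at 21.5 and 22.7 FPKM and Hdac3 at 6.40 and 6.76 FPKM. Sirt2, which is abundant in oligodendrocytes, was at 26.5 FPKM in both tables while oligodendrocyte markers were lower in the stress table. Sirt1 was at 1.64 and 1.56 FPKM, and Sirt7, a nucleolar sirtuin, at 3.62 and 2.86 FPKM (-0.26), the lowest of its class.

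The authors' deposited tables give an interval beside each FPKM. It describes the reads of that table and not the spread between mice. Among members with a single transcript and FPKM inside both intervals, 18 of 31 had a stress interval wholly above the control interval (58.1%) and 1, Sirt7, wholly below (3.23%), beside 29.9% and 6.70% of 5239 such genes. In the authors' deposited tables Kdm7a had 8.28 FPKM (8.09 to 8.62) in controls and 12.1 (11.9 to 12.5) after stress, and Kdm6b 2.65 (2.45 to 2.83) and 3.88 (3.62 to 4.04). Setd1b had 2.64 (2.47 to 2.80) and 3.61 (3.41 to 3.79), and Kmt2a 7.88 (7.65 to 8.05) and 9.99 (9.72 to 10.2). For Kdm1a, with 5.6 (4.97 to 5.77) and 5.15 (4.57 to 5.31), the intervals overlapped. Intervals are narrower for long and abundant transcripts, so a small difference in such a gene can part them. For 9 members an FPKM lay outside its own deposited interval: Hdac2, Hdac3, Hdac11, Prmt5, Prmt8, Setd3, Setd7, Setd8 and Sirt2. Levels given above for genes of this list carry that limit.

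**Figure D5:**
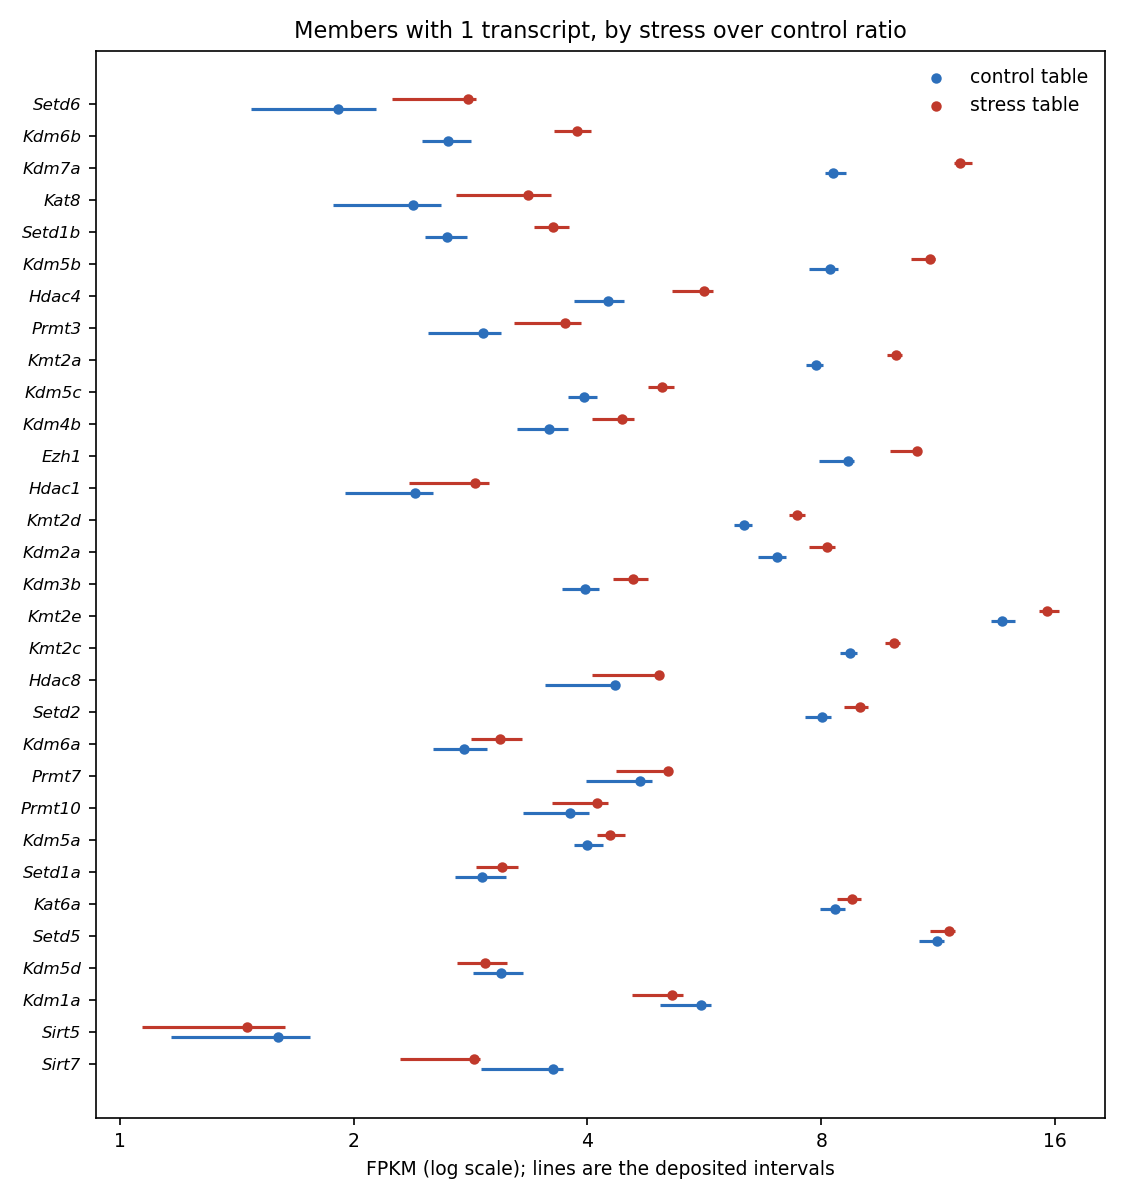
FPKM of the 31 members with 1 transcript in the control (blue) and stress (red) tables on a log axis, ordered by the ratio of stress to control, with the deposited intervals as lines. The intervals of 18 members are apart with stress higher, from Setd2 upward apart from Hdac1 and Hdac8, and those of Sirt7 are apart with stress lower.

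The most abundant transcript differed between the tables for 10 of 27 members with several transcripts (37.0%, beside 20.5% of 3200 genes): Ehmt1, Hdac5, Hdac6, Hdac7, Kat5, Kdm3a, Kdm4c, Prmt6, Setdb1 and Sirt1. In Hdac5, NM_001077696 had 6.69 FPKM in controls and 0.180 after stress, and NM_010412 had 0.995 and 11.6 FPKM. Neither has an exonic base that its gene's other transcripts lack. With 1 table per group these switches have no replicate check.

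RNA and 5hmC differences were set side by side for the same members. Across the 55 members with a peak and a mean of at least 1 FPKM, Pearson's r between the RNA difference and the coverage difference was 0.04 and Spearman's rho 0.08, as a description across genes that share the same pools. Of the 9 members with higher RNA past the line and a peak, 7 had higher mean coverage in stress (77.8%), beside 67.5% of 600 such genes. These were Hdac4, Kat5, Kdm3a, Kdm5b, Kdm6b, Setd1b and Setd8. Kdm7a and Prmt2 had lower mean coverage, and Kat8 and Setd6 had no peak. Of the members past the line in RNA, Setd1b had groups that did not overlap in coverage with all peaks. Kdm6b and Hdac4 reached an exact permutation p of 0.1 with equal peak numbers or the higher-scoring 50%, where Setd1b had 0.4 and 1 (n = 3 each). With equal covered lengths the exact permutation p was 0.4 for each of these genes.

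Other enzymes that act on histones carry names outside the rule. Of 26 in the tables, 24 passed the filter, with a median of 0.18. Crebbp, the CBP acetyltransferase, was at 13 and 17.3 FPKM and Phf8, an X-linked demethylase, at 3.24 and 4.38 FPKM. These were the only ones higher past the line, beside 7.71% of all genes, and 0 were lower, beside 3.52%. Of the 20 with a peak, 3 had a stress-only region (Crebbp, Smyd3 and Jmjd1c, beside 4.63% of all genes) and 2 a control-only region (Ncoa1 and Smyd4, beside 1.24%). Coverage was higher in every stress pool for 4 of the 20 (Clock, Carm1, Smyd3 and Jmjd1c, beside 7.49%) and lower for 0. These counts were not tested against those of the members. Among 34 partner subunits of these complexes, the median RNA difference was 0.12. Past the line 2 were higher and 0 lower, beside 7.71% and 3.52% of all genes. Of the 29 with a peak, 3 had a stress-only region (Rcor2, Gatad2a and Wiz, beside 4.63% of all genes) and 0 a control-only one (beside 1.24%). Coverage was higher in every stress pool for 5 of the 29 (those 3, Chd5 and Men1, beside 7.49%) and lower for 0. Men1, menin, a partner of Kmt2a and Kmt2b, had 19.7%, 15.4% and 21.2% of its body under peaks in stress pools and none in control pools. Rcor2, a partner of Kdm1a and the class I deacetylases, had 22.9%, 15.2% and 29.7% and none. In coverage both stood apart between the groups as Kat2a did, with the same exact permutation p of 0.1 before adjustment (n = 3 each). Rcor2 had a stress-only region, as Kat2a did, but Men1 had none.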

How the data were processed

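The deposited files are 6 peak lists, each with the authors' score per peak, and 2 RNA tables in Cufflinks format with FPKM per transcript, which hold no counts. The submitters' processing notes name mm9, Bowtie 0.12.9 and edgeR for 5hmC, and TopHat 1.0.12 with Cufflinks and Cuffdiff 2.1.1 for RNA. How the pools of a group were combined into 1 RNA table, and the depth of single libraries, are not given in the sources used here. Read coverage per unit of FPKM was 8.14 in the control table and 9.22 in the stress table, so the latter was the deeper.

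Scores ranked peaks within a list only. Peaks that shared 1 bp or more were joined into 1 region. Coverage is the share of a gene body (RefSeq transcripts of the tables, mm9) under peaks. A region is exonic where it touches an exon and no sequence within 1 kb of a start site. FPKM were added over the transcripts of a gene, and genes averaging 1 FPKM or more over both tables were used. Adding a pseudocount of 1 to each table before the log2 ratio understates differences of low genes. Groups of pools were compared by exact permutation over 20 assignments, with Benjamini-Hochberg adjustment over all genes with a peak. Python 3.11.15, pandas 2.3.3 and NumPy 2.4.6 were used. The joining of peaks and the coverage were checked with peaks planted into the lists, and the permutation p with random values. The RNA steps were not checked in this way. RefSeq sequences are GRCm38.p6 and were not joined to mm9 coordinates.

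Members, classes, lists and tests were chosen with earlier results of these data known. The text names a part of the members a fixed rule gave: those with regions in 1 group or in all 6 pools, with non-overlapping coverage, with the highest and lowest RNA differences and levels per class, with the highest coverage, and 18 fixed genes. Some genes were named after their values were seen. For 5hmC these include the members Kat5, Kdm8, Sirt4, Sirt6, Sirt7 and Suv420h1 and the partner subunits Men1 and Rcor2.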

Additional observations from a re-analysis of the deposited data

How the results depend on the processing

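With equal peak numbers (the best-scoring of each list), the higher-scoring 50% and equal covered lengths, stress-only members numbered 1 (Kat2a), 1 (Kat6b) and 0, and control-only members 1, 1 and 1 (Kdm2b). Leaving out 1 library gave 4 to 9 stress-only and 2 to 4 control-only members, and 4 to 16 members higher and 2 to 5 lower in every stress pool. With equal peak numbers 6 were higher and 4 lower, and with bodies extended by 5 kb 7 and 0. Shares of all genes were not computed under these settings, so these counts have no background. Leaving out a library also makes the rules easier to meet. The difference in mean relative coverage, 0.341, was 0.0304 with extended bodies, -0.223 weighted by length and -0.104 over members of at least 10 kb, an alternative added after seeing the data. Coverage of Kat6b, 0.091 higher in stress, was -0.665, -1.44 and -0.169 with equal numbers, equal length and the higher-scoring 50%, and -0.857 to 1.64 when 1 library was left out (negative without stress replicate 2 or 3 or control replicate 1 or 3). Kdm2b was -0.307 with equal numbers and equal length. The exon share kept its direction under all alternatives run (5.58 to 7.5 percentage points).

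Centred on the median of all genes, the RNA median was 0.0671, with 4 members higher and 2 lower, beside 3.9% and 6.12% of all genes. The most abundant transcript alone gave 17 of 64 members higher and 1 lower, beside 11.2% and 6.16% of all genes. A pseudocount of 0.1 gave 15 of 66 higher and 2 lower, beside 13.1% and 5.99%. At 1.5-fold, 1 was higher and 0 lower, beside 1.18% and 0.894%. The causes of these changes were not tested.

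Deviations of same-numbered pools were weakly correlated (0.0850, 0.0475 and -0.0444 over 10099 genes). Pools of unlike number gave -0.145 to 0.0916. With 3 pools per group these values cannot show whether the numbers pair the pools, which were treated as unpaired in the main results. With the replicate block, 10 members were higher in stress in all 3 pairs and 3 lower, and the mean relative coverage difference was 0.341. The share of all genes was not computed for these pairs, so the counts have no background. Single peak lists of unequal depth limit what an absent peak shows.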
